A study of Mus musculus with 24 samples.

Results

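The cornified envelope genes are 38 of the 15055 genes measured in mouse digit tips after amputation. They were chosen by name, with earlier results of these data known. The choice takes every gene whose symbol starts with Sprr or Lce, together with Flg, Flg2, Lor, Ivl, Rptn, Hrnr, Crnn, Tchh, Crct1, Cdsn, Casp14, Tgm1, Tgm3 and Tgm5. Of 39 genes named in this way 38 were measured, and Tchhl1 was not analysed here. The samples are digit tips of the hind limb of C57BL/6 mice 10 to 12 weeks old, and each sample held bone, cartilage, marrow, dermis and epidermis together. The 24 libraries form 6 groups of 4, taken 12, 14 or 21 days after either a distal or a proximal amputation. Mouse digit tips are known to regenerate after a distal amputation and to heal without regrowth after a proximal one. All 6 groups are amputated digits of 1 inbred strain, and an uninjured digit was not analysed here. Whether each library stands for its own animal is not stated in the labels. The p-values therefore rest on library-to-library spread, which may be partly technical.

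Keratinocytes that reach the surface of the skin die and replace their plasma membrane with the cornified envelope, a shell of protein. Involucrin and desmosomal proteins are laid down first, loricrin, the small proline-rich (Sprr) proteins and the late cornified envelope (Lce) proteins are then added, and transglutaminases cross-link them. Inside the shell, filaggrin and its relatives bundle keratin filaments. Most of these genes sit side by side in the epidermal differentiation complex, a gene cluster, and the digit tip expresses them in the epidermis around the nail, with the nail plate being a cornified structure of its own. Amputation leaves a wound that this epidermis has to close and cover again.

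In the genome build GRCm38 (the same assembly as mm10), 33 of the 38 genes lie on chromosome 3 between 92080271 and 93449077, a stretch of 1369 kb. It starts with Lor and runs through the Sprr genes, Ivl, Lce6a, the Lce1 genes, the Lce3 genes, Crct1, Lce1m, Crnn, Flg2, Flg, Hrnr and Rptn to Tchh. The other 5 lie elsewhere: Tgm3 and Tgm5 on chromosome 2, Casp14 on chromosome 10, Tgm1 on chromosome 14 and Cdsn on chromosome 17. By role they comprise 5 small proline-rich genes (Sprr1a, Sprr1b, Sprr2b, Sprr2d and Sprr2h), 19 late cornified envelope genes (14 of the Lce1 family, 4 of the Lce3 family and Lce6a), 6 genes of the S100-fused family (Flg, Flg2, Rptn, Hrnr, Crnn and Tchh), the group of Lor, Ivl and Crct1, 3 transglutaminases, and Cdsn and Casp14.

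The upstream sequences are shown because the results describe the Sprr, Lce1 and Lce3 genes by family. Promoters from RefSeq (GRCm38.p6) were found for 36 of the 38 genes, and not for Crct1 and Lce1f. In windows from 250 bases before to 50 bases after the start of transcription, the AP-1 motif TGANTCA was present in 5 of 5 Sprr promoters, 0 of 13 Lce1 promoters, 0 of 4 Lce3 promoters and 11 of all 36, against 7.81% of 32851 mouse promoters of the same length. The TATA box TATAAA, searched on both strands, was present in 5 of 5 Sprr promoters, 2 of 13 Lce1 promoters and 16 of all 36, against 13.6% of all promoters. The KLF motif CACCC was present in 20 of 36, or 55.6%, against 57.5% of all promoters. TGANTCA reads the same on both strands, and none of the 3 motifs can contain another. A match describes the letters only; it is not evidence of binding.

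The promoters of 4 Sprr genes, of Flg and Crnn from the S100-fused genes and of Lor, all of which hold both motifs, are printed 5′ to 3′ up to the base before the start, with TGANTCA and forward-strand TATAAA in capitals. Sprr2b, Sprr2d and Sprr2h are shown over 200 bases because their AP-1 match begins 195, 193 and 198 bases before the start, respectively.
Sprr2b (chr3:92316505-92316704, plus strand): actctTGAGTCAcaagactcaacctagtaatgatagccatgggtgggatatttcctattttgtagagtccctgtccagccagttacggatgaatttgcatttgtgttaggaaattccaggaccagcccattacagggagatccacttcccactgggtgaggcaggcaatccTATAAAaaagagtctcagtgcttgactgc
Sprr2d (chr3:92338940-92339139, plus strand): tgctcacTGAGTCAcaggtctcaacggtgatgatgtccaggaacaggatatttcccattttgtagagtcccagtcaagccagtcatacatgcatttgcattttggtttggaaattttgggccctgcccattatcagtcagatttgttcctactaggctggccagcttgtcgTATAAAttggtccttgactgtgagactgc
Sprr2h (chr3:92385485-92385684, plus strand): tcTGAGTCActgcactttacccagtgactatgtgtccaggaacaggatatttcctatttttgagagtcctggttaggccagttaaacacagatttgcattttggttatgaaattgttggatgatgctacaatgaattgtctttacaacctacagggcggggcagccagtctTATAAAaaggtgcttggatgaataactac
Sprr1a (chr3:92485882-92486031, minus strand): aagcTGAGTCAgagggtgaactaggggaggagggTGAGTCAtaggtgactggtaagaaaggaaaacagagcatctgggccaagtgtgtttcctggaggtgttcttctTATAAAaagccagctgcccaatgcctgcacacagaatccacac
Flg (chr3:93273426-93273545, plus strand): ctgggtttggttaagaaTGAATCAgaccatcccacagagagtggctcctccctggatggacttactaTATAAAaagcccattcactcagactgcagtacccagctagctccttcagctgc
Crnn (chr3:93144669-93144788, plus strand): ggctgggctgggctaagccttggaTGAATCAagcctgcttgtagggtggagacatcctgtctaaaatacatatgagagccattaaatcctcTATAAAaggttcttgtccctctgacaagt
Lor (chr3:92083143-92083262, minus strand): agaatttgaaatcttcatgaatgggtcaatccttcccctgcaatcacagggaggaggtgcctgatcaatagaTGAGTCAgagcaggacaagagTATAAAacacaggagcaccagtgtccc
The 3 Sprr2 promoters carry TATAAA at the same place, its first base 29 bases before the start. They were 58.1% to 64.3% identical in pairs over the 80 bases before the start. Pairs of an Lce1 and a Sprr2 promoter were 48.8% to 60.2% identical, so the ranges overlap. Sprr2b and Sprr2d were called in different comparisons, as their values show further on.

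The Lce families have their own shared letters. In the 80 bases before the start, 9 of 13 Lce1 promoters held the run actgtctcac and 9 of 13 held cagaataaaa, against 0.0426% and 0.0487% of all promoters and 0 of 4 Lce3 promoters. Both runs were picked out after the Lce1 sequences were seen, and they are in capitals in the Lce1 lines below. In Lce1a2 and Lce1h the first begins 65 bases and the second 33 bases before the start.
Lce1a1 (chr3:92648308-92648387, minus strand): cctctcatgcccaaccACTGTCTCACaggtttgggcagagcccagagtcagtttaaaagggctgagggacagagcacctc
Lce1a2 (chr3:92670316-92670395, minus strand): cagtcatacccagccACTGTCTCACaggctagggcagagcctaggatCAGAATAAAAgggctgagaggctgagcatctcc
Lce1b (chr3:92656927-92657006, minus strand): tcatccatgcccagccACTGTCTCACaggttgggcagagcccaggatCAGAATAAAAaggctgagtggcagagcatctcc
Lce1h (chr3:92765066-92765145, minus strand): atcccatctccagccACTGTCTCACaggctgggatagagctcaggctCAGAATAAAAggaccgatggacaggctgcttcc
Lce3d (chr3:92957310-92957389, plus strand): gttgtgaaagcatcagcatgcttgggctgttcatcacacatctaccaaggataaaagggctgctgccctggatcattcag
Lce3e (chr3:92966981-92967060, plus strand): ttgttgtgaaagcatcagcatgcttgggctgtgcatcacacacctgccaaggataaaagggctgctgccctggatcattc
The median pairwise identity over the 80 bases was 65.3% among Lce1 promoters, 86.4% among Lce3 promoters and 52.6% between the families. The transcripts are alike too. Of the 50-base words of an Lce1 gene, 0% to 25.4% (median 19.4%) also occurred in a transcript of another Sprr or Lce gene. For an Lce3 gene the share was 35.7% to 49.3%. Reads that lie within such stretches may not be assignable to 1 gene, so values of single Lce genes are uncertain, those of Lce3 most. Lce1m and Lce6a shared none of their words.

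The deposited values have no absolute unit. They are whole numbers that look normalised between libraries and rounded, so the depth behind them is unknown, and they are called levels here. The values of a library summed to between 15264829 and 19351055, and the upper quartiles lay between 902.5 and 930.5. Differences are given as log2 changes of the level plus 1, with moderated standard errors (SE), from a limma fit over all 24 libraries, and a gene was called when its Benjamini-Hochberg adjusted p over all 15055 genes was under 0.05. Every one of the 38 genes had a mean level of at least 50.

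Some libraries stand apart from their group. Replicate 4 at 14 days after distal amputation had a summed Lce1 level of 34813 against 15332 to 22355 in the other 3 libraries, and a Krt1 plus Krt10 level of 164788 against 50947 to 64005. Replicate 2 of the same group had a summed level of 4 neutrophil markers of 13978 against 186 to 2694. Replicates 2 and 3 at 21 days after proximal amputation had neutrophil sums of 6059 and 6006 against 326 and 471 in the other libraries. Some of the results that rest on these libraries are given with and without them.

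Per kilobase of transcript, averaged over all libraries, Lor was the most abundant of the 38 genes at 11570, followed by Crct1 at 8612, Cdsn at 5443 and Lce1l at 5374. Lor encodes loricrin, the main constituent of the envelope by mass, and it ranked 60th among all genes per kilobase. Hrnr reached 3418 and Flg 2612 per kilobase, while Ivl, which encodes involucrin, reached 221. Tchh was lowest at 30.6; trichohyalin, its product, is best known from the inner root sheath of hair follicles. Across the 24 libraries the highest level exceeded the lowest by 2.3 times for Tgm3, the steadiest gene, and by 89.7 times for Flg2, the most variable.

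**Figure D1:**
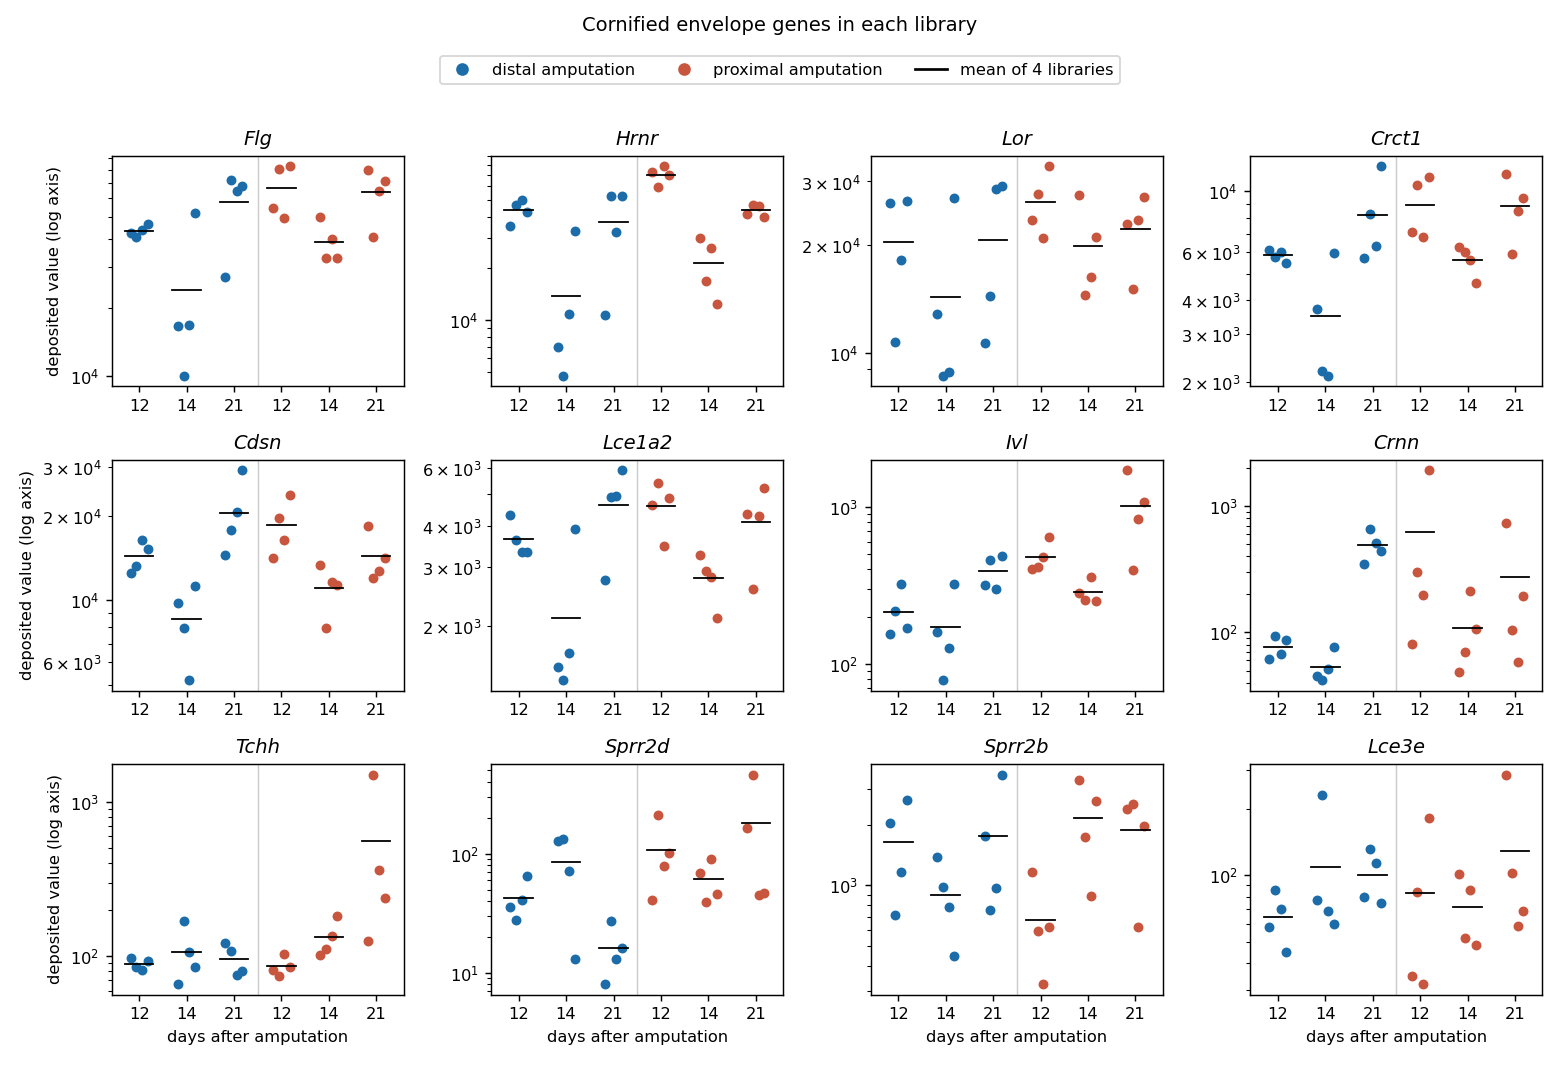
Deposited level (log axis) of 12 cornified envelope genes in each of the 24 libraries, by days after distal or proximal amputation; points are libraries and bars are means of 4. At 14 days after distal amputation, 3 of 4 libraries are low for Flg, Hrnr, Crct1 and Lce1a2 and 1 is high; Crnn is raised in all 4 distal libraries at 21 days, and Tchh at 21 days after proximal amputation.

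Between 12 and 14 days after distal amputation, 10 of the 38 genes were called lower, against 8.12% of all genes called lower in that comparison, and 0 were called higher. They were Lce1a1, Lce1a2, Lce1b, Lce1c, Lce1d, Flg, Hrnr, Crct1, Tgm1 and Cdsn. The median log2 change was -0.54 over the 38 genes and 0.01 over all genes, and 30 of the 38 changes were negative.

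Hrnr, which encodes the filaggrin-like protein hornerin, changed most. Its level was 35305, 46385, 50101 and 42735 in the 4 distal libraries at 12 days and 6959, 4757, 10907 and 32921 at 14 days. The groups did not overlap, although replicate 4 at 14 days came close to the 12-day libraries. The log2 change was -2.05 ± 0.46 (SE; adjusted p = 0.0036), and the call was kept whichever of the 8 libraries was left out. Cdsn, which encodes corneodesmosin, an adhesive protein that holds corneocytes together, did not overlap either. It had 12561, 13266, 16449 and 15209 at 12 days and 9796, 7980, 5187 and 11280 at 14 days, a log2 change of -0.80 ± 0.23 (adjusted p = 0.0171). The Cdsn call was lost without replicate 3 at 14 days (adjusted p = 0.0793).

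Flg encodes profilaggrin, which is cut into the filaggrin units that bundle keratin. Its level was 42568, 40634, 43770 and 46592 at 12 days after distal amputation and 16673, 10051, 16842 and 51744 at 14 days. Replicate 4 at 14 days lay above all 12-day libraries and the other 3 lay far below them, so the groups overlap. The log2 change was -1.15 ± 0.36 (adjusted p = 0.0298), or -1.62 without that replicate; leaving out any 1 of the other 7 libraries instead lost the call, with adjusted p up to 0.127. Crct1 showed the same arrangement, with 6094, 5765, 6013 and 5489 at 12 days and 3719, 2194, 2114 and 5935 at 14 days (log2 change -0.88 ± 0.28, adjusted p = 0.029). Lce1a2 did as well, with 4317, 3638, 3347 and 3337 followed by 1498, 1368, 1651 and 3912 (-0.93 ± 0.27, adjusted p = 0.02). In both genes replicate 4 at 14 days reached the range of the 12-day libraries or came within it, and the other 3 libraries stayed below. The Crct1 call was lost without distal 12-day replicate 1, 2 or 3 or 14-day replicate 2 or 3 (adjusted p up to 0.113), and the Lce1a2 call without 12-day replicate 1 or 14-day replicate 1, 2 or 3 (up to 0.0767). Tgm1, the membrane-bound transglutaminase that attaches the envelope's first layer, also fell: it had 2622, 3715, 3713 and 3452 at 12 days and 2713, 2420, 1679 and 2664 at 14 days. Replicate 1 at 12 days lay below replicates 1 and 4 at 14 days, so the groups overlap, and the log2 change was -0.52 ± 0.16 (adjusted p = 0.0211), lost without 12-day replicate 2, 3 or 4 or 14-day replicate 3 (up to 0.0966).

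The count of 10 rests on the library that stands apart. It was 18 without replicate 4 at 14 days, where 12 of the 14 Lce1 genes and Lce6a were among the called, and between 1 and 4 when any other library was left out. It was 3 when only the 8 libraries compared were fitted. The shares of all genes called in these other fits are not given here.

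Other members were not called in this step. Ivl stood at 154, 216, 321 and 170 at 12 days and 160, 79, 126 and 324 at 14 days (log2 change -0.45 ± 0.37, adjusted p = 0.432). Of the 5 Sprr genes, whose products cross-bridge the envelope and are known to be induced in stressed epithelium, none was called, with log2 changes from -0.81 to 0.64. The 4 Lce3 genes all had small positive values, from 0.04 to 0.58, and none was called. Their summed level was 427, 415, 481 and 360 at 12 days and 431, 1187, 343 and 352 at 14 days. Replicate 2, the library with the high neutrophil sum, had the highest level at 14 days of each of the 4 genes. The sums of the other libraries at 14 days, at 343 to 431, overlap the 360 to 481 at 12 days. Lor did not pass the test (-0.59 ± 0.36, adjusted p = 0.279), with 26056, 10728, 18067 and 26399 at 12 days and 12825, 8612, 8853 and 26930 at 14 days.

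From 14 to 21 days after distal amputation, 25 of the 38 genes were called higher, against 13.3% of all genes, and 1 was called lower, against 21.5% of all genes. The 25 comprise all 14 Lce1 genes, Lce6a, Flg, Hrnr, Crnn, Ivl, Crct1, Tgm1, Tgm3, Tgm5, Cdsn and Casp14. The median log2 change was 1.03 over the 38 genes and -0.04 over all genes. The count of calls in either direction, 26, stayed between 20 and 27 when each library in turn was left out.

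The Lce1 genes rose by similar amounts, between 0.87 (Lce1j and Lce1g) and 1.61 (Lce1m) on the log2 scale. Lce1a2 reached 2740, 4905, 4925 and 5889 at 21 days against 1498, 1368, 1651 and 3912 at 14 days, a log2 change of 1.22 ± 0.27 (adjusted p = 0.00149). Lce1l, the most abundant of the family per kilobase, went from 3227, 1721, 2103 and 2478 to 4162, 3149, 4022 and 8527 (0.99 ± 0.31, adjusted p = 0.015). Groups overlapped in both genes, and the Lce1l call was lost without 14-day replicate 2 (adjusted p = 0.0562) or 21-day replicate 4 (0.079). The Lce3 genes beside them on the chromosome did not pass the test, at log2 changes of -0.69 to 0.54. Their summed level was 431, 1187, 343 and 352 at 14 days and 502, 657, 625 and 547 at 21 days. The 1187 is replicate 2, the library with the high neutrophil sum. Without it every 21-day sum lay above every 14-day sum. The difference between the families was not tested.

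Among the S100-fused genes, Crnn rose most. Crnn encodes cornulin, a protein of stratified squamous epithelium. Its level was 45, 42, 51 and 77 at 14 days and 350, 658, 511 and 438 at 21 days, so every 21-day library lay far above every 14-day library. The log2 change was 3.17 ± 0.71 (adjusted p = 0.0014), and it was also higher at 21 than at 12 days, when the libraries held 62, 93, 67 and 87 (2.63 ± 0.71, adjusted p = 0.00937). Both calls were kept when each library was left out. In the comparison of 21 with 12 days Crnn was the only 1 of the 38 genes called, against 8.81% of all genes called higher. Between 1 and 4 genes were called there when each library was left out, with 4 without 21-day replicate 1.

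Flg recovered to 27210, 72327, 64514 and 67779 at 21 days (1.47 ± 0.36 against 14 days, adjusted p = 0.00328). Hrnr recovered to 10763, 52418, 32418 and 52693 (1.59 ± 0.46, adjusted p = 0.0105). Replicate 1 at 21 days was the low library in both genes, and the groups overlap with those at 14 days. The Hrnr call was lost without 14-day replicate 2 (adjusted p = 0.0536). Flg2, which encodes filaggrin-2, had values of 1.79 ± 0.73 that missed the threshold (adjusted p = 0.0607), Rptn had 0.60 ± 0.49 (0.377), and Tchh had -0.08 ± 0.45 (0.916).

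The cross-linking enzymes rose as well. Tgm1 reached 4742, 4149, 3757 and 5145 at 21 days, above all 14-day libraries (0.92 ± 0.16, adjusted p = 9.62e-05). Tgm3, a transglutaminase that acts in the upper epidermis and in hair, went from 8007, 7082, 5342 and 5804 to 8782, 7365, 10497 and 11901 (0.55 ± 0.17, adjusted p = 0.0137), with overlapping groups. The Tgm3 call was lost without 14-day replicate 3 (adjusted p = 0.0547) or 21-day replicate 4 (0.0609). Tgm5, a transglutaminase of upper epidermal layers, did not overlap between groups, with a range of 113 to 245 at 14 days and 304 to 655 at 21 days (1.07 ± 0.33, adjusted p = 0.0156).

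Cdsn reached 14527, 17835, 20720 and 29167, with no overlap with the 14-day libraries (1.27 ± 0.23, adjusted p = 0.000186). Casp14, the protease of cornifying cells that helps to process filaggrin, went from 535, 324, 379 and 856 to 477, 1318, 1138 and 1310 (1.01 ± 0.32, adjusted p = 0.0178). Its groups overlap, and the call was lost without 14-day replicate 2 or 3 or 21-day replicate 2 or 4 (adjusted p up to 0.0733). Crct1 reached 5729, 8263, 6311 and 12370 (1.29 ± 0.28, adjusted p = 0.000955) and Ivl 317, 457, 301 and 488 (1.34 ± 0.37, adjusted p = 0.00762). In both, replicate 4 at 14 days overlapped the 21-day range, and both calls were kept when each library was left out. Lor reached 10664, 14337, 28574 and 29085 and did not pass the test (0.57 ± 0.36, adjusted p = 0.239).

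The 1 gene called lower was Sprr2d. Its level was 127, 132, 72 and 13 at 14 days and 8, 27, 13 and 16 at 21 days after distal amputation. Replicate 4 at 14 days lay among the 21-day libraries. The log2 change was -2.05 ± 0.69 (adjusted p = 0.0243), lost without 14-day replicate 1, 2 or 3 or 21-day replicate 1 (adjusted p up to 0.0858). The other Sprr genes were not called, among them Sprr1b, the most abundant, with 1941, 3167, 1274 and 1046 followed by 2159, 2224, 3427 and 2635 (0.60 ± 0.33, adjusted p = 0.163).

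**Figure D2:**
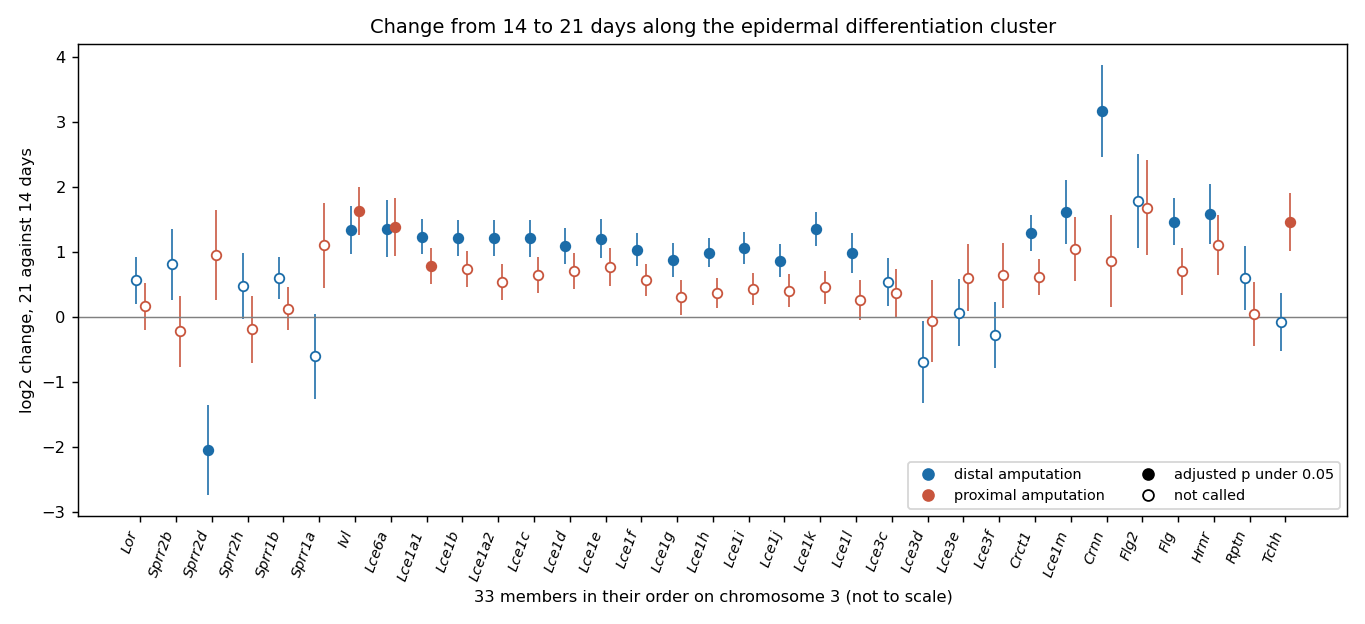
Log2 change from 14 to 21 days (bars: SE) of the 33 genes on chromosome 3 in their chromosomal order, after distal and after proximal amputation; filled points are called. After distal amputation the run from Ivl through Lce1l is called throughout, the 4 Lce3 genes that follow are not, and Sprr2d lies at -2.05.

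Markers of other cell types were called in the same comparisons. The summed level of 6 fibroblast markers was 301079 to 523922 at 12 days, 639108 to 1132035 at 14 days and 210437 to 295622 at 21 days after distal amputation. Of these 6, 5 were called higher at 14 than at 12 days and all 6 lower at 21 than at 14 days; 5 of 5 osteoblast, 5 of 5 macrophage and 4 of 4 endothelial markers were also called lower at 21 days. Over all genes 11.2% were called higher in the first step and 21.5% lower in the next. The 3 sweat gland markers had sums of 632 to 1692, 136 to 822 and 398 to 1130 at 12, 14 and 21 days, with 1 of 3 called lower and then 1 of 3 higher. Of the basal keratinocyte markers 0 of 6 were called in either step. Krt5 plus Krt14 ranged over 119888 to 182859 at 12 days, 113739 to 170092 at 14 days and 110964 to 143305 at 21 days. The means of these sums were 162200, 131000 and 133800. Per 1000 units of Krt5 plus Krt14, the Lce1 sum was 174 to 274 at 12 days, 90.1 to 301 at 14 days and 223 to 462 at 21 days. Per 1000 units of Krt1 plus Krt10, the keratins of the spinous layer, it was 137 to 250, 211 to 349 and 150 to 225. In bulk tissue, fewer cells of a type and less RNA per cell cannot be told apart, and the part of the tissue's makeup in these changes was not tested. No marker of these lists was at 0 in any library; markers of the inner root sheath were not analysed here.

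**Figure D3:**
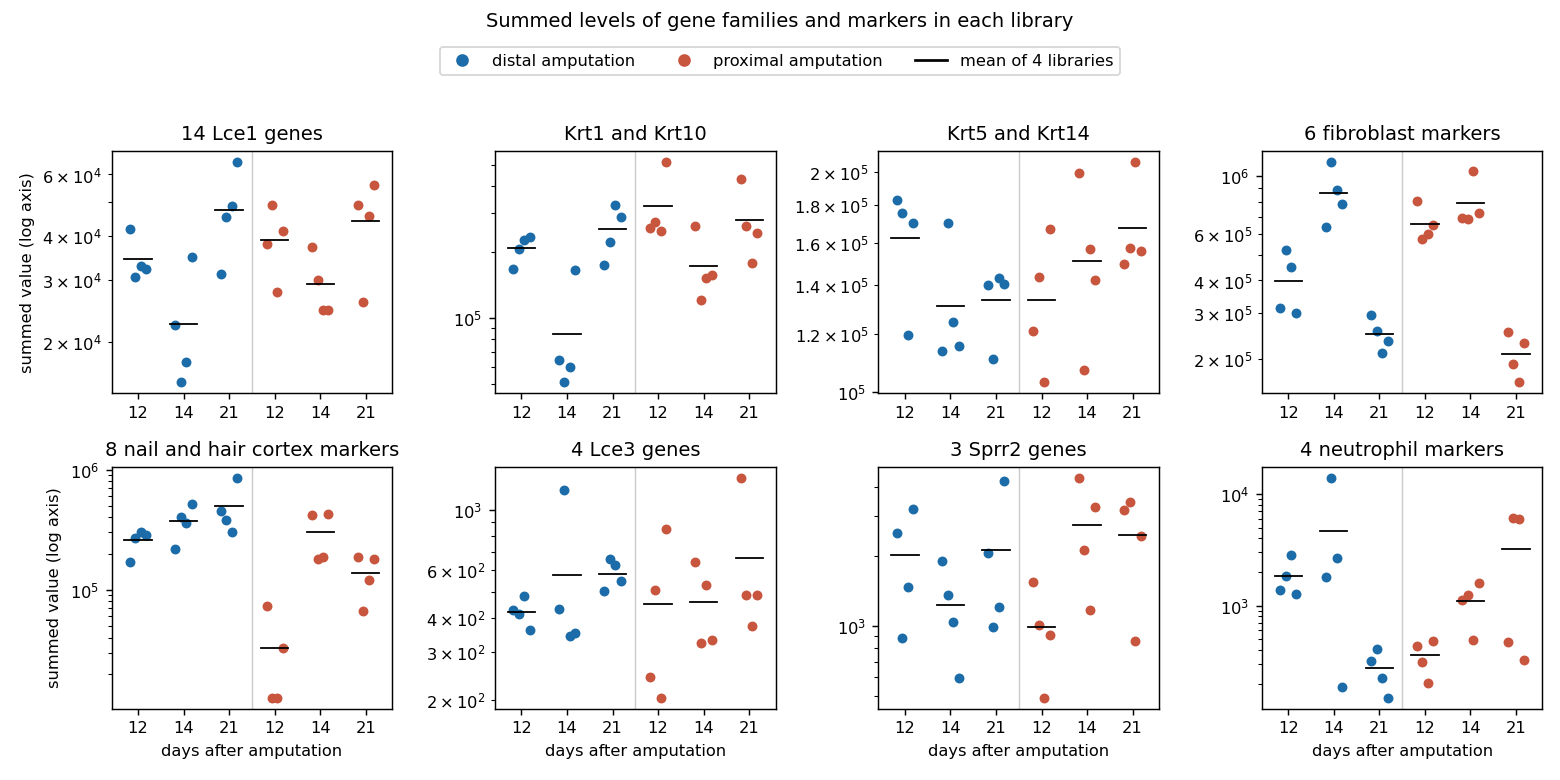
Summed levels (log axis) in each library of the Lce1, Lce3 and Sprr2 families, of 2 keratin pairs and of 3 marker lists, by days after distal or proximal amputation; bars are means of 4. At 14 days after distal amputation Lce1 and the Krt1 and Krt10 pair are low in 3 of 4 libraries while the fibroblast sum is 639108 to 1132035; Krt5 plus Krt14 stays between 103203 and 206147 in all 24 libraries.

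From 12 to 14 days after proximal amputation, 2 of the 38 genes were called lower, against 7.84% of all genes, and 1 higher, against 7.35%. The 2 were Hrnr and Cdsn, which were also called after distal amputation. Hrnr stood at 72272, 59291, 78449 and 69230 at 12 days and 30054, 17014, 26310 and 12352 at 14 days, without overlap (-1.78 ± 0.46, adjusted p = 0.0115). Its call was kept when each library was left out. Cdsn went from 14200, 19730, 16411 and 23808 to 13346, 7951, 11596 and 11375, also without overlap (-0.74 ± 0.23, adjusted p = 0.0317), and its call was lost without 12-day replicate 2 or 4 or 14-day replicate 2, 3 or 4 (adjusted p up to 0.109).

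Other genes of the group had lower values that did not pass the test. Flg had 54731, 80643, 49462 and 83047 at 12 days and 49568, 32844, 40026 and 32802 at 14 days (-0.77 ± 0.36, adjusted p = 0.166). Crct1 (-0.64 ± 0.28, adjusted p = 0.125) and Lce1a2 (-0.73 ± 0.27, adjusted p = 0.0788) did not overlap between days, with 7108, 10597, 6807 and 11283 against 6257, 5991, 5607 and 4631, and 4623, 5396, 3487 and 4868 against 3266, 2930, 2810 and 2101. Ivl (399 to 638 against 252 to 357) and Lce1m (2045 to 2830 against 1244 to 1962) did not overlap either and were not called. With Hrnr and Cdsn, 6 of the 38 genes did not overlap between days, against 2725 of all 15055 genes. The count of calls in either direction, 3, became 9 when only the 8 libraries compared were fitted and 6 with libraries scaled to equal totals, with Sprr2b the only gene called higher in both. It was 1 without 12-day replicate 2 or without 14-day replicate 2 or 4, and 4 at most.

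The gene called higher was Sprr2b, a small proline-rich gene of the group whose promoters open the sequences above. Its level was 1169, 596, 324 and 620 at 12 days and 3340, 1746, 889 and 2614 at 14 days after proximal amputation. The groups overlap, and the log2 change was 1.65 ± 0.55 (adjusted p = 0.0446). After distal amputation Sprr2b had 2033, 714, 1168 and 2635 at 12 days and 1389, 977, 786 and 447 at 14 days (-0.81 ± 0.55, adjusted p = 0.327). The difference between the levels of amputation in this change was itself called, at -2.45 ± 0.77 (adjusted p = 0.0416), for 1 of the 38 genes against 11.7% of all genes. The call of the rise was lost without any 1 of 6 of 8 libraries (all but 12-day replicate 1 and 14-day replicate 3; adjusted p up to 0.132). That of the difference was lost without 11 of 16 (up to 0.0894), the exceptions being distal 12-day replicates 2 and 3, distal 14-day replicate 1, proximal 12-day replicate 1 and proximal 14-day replicate 3.

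From 14 to 21 days after proximal amputation, 6 of the 38 genes were called higher, against 12.5% of all genes, and 0 lower. They were Lce1a1, Lce6a, Tchh, Ivl, Tgm3 and Casp14. The median log2 change was 0.62 over the 38 genes and -0.00 over all genes, and 35 of 38 values were positive. Of these 6, the gene of involucrin changed most: Ivl went from 283, 255, 357 and 252 to 1701, 394, 840 and 1076, without overlap (1.63 ± 0.37, adjusted p = 0.00229), and this call was kept when each library was left out. Casp14 went from 1110, 737, 674 and 565 to 1593, 1232, 1618 and 1966, without overlap (1.08 ± 0.32, adjusted p = 0.0157), but the call was lost without 14-day replicate 4 (adjusted p = 0.0546).

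Tgm3 went from 9265, 7118, 7390 and 7050 to 11923, 8544, 9974 and 12268, with overlap (0.46 ± 0.17, adjusted p = 0.0411). It was also called against 12 days, when it held 6133, 9025, 5643 and 7994 (0.58 ± 0.17, adjusted p = 0.0119). The first of these calls was lost without 14-day replicate 2, 3 or 4 or 21-day replicate 1, 3 or 4 (adjusted p up to 0.117), the other without 12-day replicate 3 (0.0535). Lce6a, which encodes a late cornified envelope protein, ranged over 149 to 397 at 14 days and 518 to 857 at 21 days (1.39 ± 0.44, adjusted p = 0.0231). Flg had 80239, 40629, 64355 and 71438 at 21 days and Hrnr 41477, 46912, 46344 and 39587. The Hrnr groups did not overlap, as was so for 4 of the 38 genes and 3829 of all 15055 genes in that step. Neither Flg nor Hrnr passed the test against 14 days, at 0.70 ± 0.36 (adjusted p = 0.155) and 1.11 ± 0.46 (0.077). Cdsn, with 18506, 12038, 12775 and 14132, did not pass it either (0.38 ± 0.23, adjusted p = 0.223), nor did Tgm1, with 3028, 2543, 3497 and 3358 followed by 4223, 3873, 3114 and 3137 (0.21 ± 0.16, adjusted p = 0.343).

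Markers of other cell types were called in the proximal steps too. From 12 to 14 days 8 of 8 nail and hair cortex markers were called higher, with a median log2 change of 3.49, beside 7.35% of all genes. Of 4 wound keratinocyte markers (Krt6a, Krt6b, Krt16 and Krt17), 2 were called higher, with a median of 1.04. Also called higher were 3 of 4 endothelial and 1 of 5 osteoblast markers. Of the sweat gland markers 1 of 3 was called lower, beside 7.84% of all genes. From 14 to 21 days 5 of 6 fibroblast, 4 of 5 osteoblast and 2 of 5 macrophage markers were called lower. So were 4 of 4 endothelial and 2 of 8 nail and hair cortex markers, beside 16.3% of all genes. Of the basal keratinocyte markers 1 of 6 was called higher, beside 12.5% of all genes. Their part in the changes of the envelope genes was not tested.

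The count of 6 was 15 without replicate 2 at 21 days after proximal amputation, 9 without 14-day replicate 1, 13 with equal totals and 10 when only the libraries compared were fitted. It was 2 without 14-day replicate 4 and 3 without 14-day replicate 3 or 21-day replicate 3, its lowest values. The shares of all genes called in these other fits are not given here. The fewer calls after proximal than after distal amputation do not show that the rise differed: a level difference in the 14 to 21 day change was called for 0 of the 38 genes, against 1.90% of all genes. Its median was 0.47 over the 38 genes and -0.05 over all genes, and 29 of 38 values were positive, all 14 Lce1 genes among them (0.39 to 0.90). It was nearest to the threshold for Tgm1 (0.72 ± 0.22, adjusted p = 0.0823) and Sprr2d (-3.00 ± 0.97, adjusted p = 0.0965). Sprr2d was called there without distal 14-day replicate 4, the library that stands apart in the Lce1 sum, and Tchh without proximal 21-day replicate 1.

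Tchh was the S100-fused gene called between 12 and 21 days after proximal amputation. After proximal amputation it stood at 82, 75, 103 and 86 at 12 days, 102, 111, 135 and 183 at 14 days and 126, 1494, 364 and 240 at 21 days. Every 21-day library lay above every 12-day library, with replicate 2 far above the others. The log2 change from 12 to 21 days was 2.05 ± 0.45 (adjusted p = 0.00161), or 1.36 without that replicate (adjusted p = 0.00204), and 2 of the 38 genes, Tchh and Tgm3, were called higher there, against 12.0% of all genes. Leaving out each library in turn gave 1 to 5 calls there, the fewest without 12-day replicate 3 and the most without 12-day replicate 4, and fitting only the libraries compared gave 6. From 14 to 21 days the change was 1.46 ± 0.45 (adjusted p = 0.0182), or 0.78 without replicate 2, when the call was lost (adjusted p = 0.0637).

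After distal amputation Tchh was not called in any step: it had 97, 86, 82 and 93 at 12 days, 66, 168, 107 and 85 at 14 days, and 122, 108, 76 and 81 at 21 days. At 21 days all 4 distal libraries lay below all 4 proximal ones, at -1.91 ± 0.45 (adjusted p = 0.00603), or -1.22 without proximal replicate 2 (adjusted p = 0.0109). For Tchh the 12 to 21 day change differed between amputation levels by -1.96 ± 0.63 (adjusted p = 0.0402), and this call was lost without 11 of 16 libraries (adjusted p up to 0.073): any of the distal 12-day libraries, distal 21-day replicate 2, 3 or 4, proximal 12-day replicate 1, 2 or 4, and proximal 21-day replicate 3. The summed nail and hair cortex markers were 66840 to 187418 in the proximal libraries at 21 days and 12619 to 73767 at 12 days, and replicate 2 had the lowest of these sums at 21 days. The sums were higher at 14 days after proximal amputation, at 179596 to 429676, and at 21 days after distal amputation, at 302900 to 855312, although Tchh was not called higher than at 12 days in either group. Their part in the Tchh change was not tested.

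Crnn was the other gene whose change from 12 to 21 days differed between levels, at 3.48 ± 1.00 (adjusted p = 0.022). These 2 genes of 38 stand against 14.8% of all genes. After proximal amputation Crnn had 81, 302, 196 and 1910 at 12 days, 49, 70, 212 and 106 at 14 days, and 732, 104, 58 and 195 at 21 days. The 12-day and 21-day groups overlap widely (-0.85 ± 0.71, adjusted p = 0.394), while the distal ones do not overlap. The difference was lost only without proximal 21-day replicate 3 (adjusted p = 0.0523), and it ranged from 2.61 to 4.17 over the 16 libraries left out.

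Between the levels of amputation, 2, 0 and 3 of the 38 genes were called at 12, 14 and 21 days. The comparison asks whether tissue that will regrow and tissue that will not carry different amounts of envelope RNA. At 12 days 2 of the 38 genes were called lower after distal amputation, against 11.0% of all genes, and 0 higher. Ivl had 154, 216, 321 and 170 after distal and 399, 412, 477 and 638 after proximal amputation, without overlap (-1.19 ± 0.37, adjusted p = 0.026). Crnn had 62, 93, 67 and 87 against 81, 302, 196 and 1910, with overlap (-2.01 ± 0.71, adjusted p = 0.0479).

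Both calls are fragile. That of Ivl was lost without distal replicate 1 or 4 or proximal replicate 3 or 4 (adjusted p up to 0.0812). That of Crnn was lost without any 1 of 7 of the 8 libraries, all but proximal replicate 1, and was -1.14 (adjusted p = 0.21) without proximal replicate 4, the library at 1910. The count of 2 became 0 without distal replicate 1 or 4 or proximal replicate 3 or 4, 1 without distal replicate 2 or 3 or proximal replicate 2, and 3 without proximal replicate 1. It was 5 when only the libraries compared were fitted.

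Flg, Hrnr and Crct1 did not overlap between levels at 12 days and did not pass the test, at -0.59 ± 0.36 (adjusted p = 0.269), -0.68 ± 0.46 (0.317) and -0.58 ± 0.28 (0.145). Flg2 did not overlap either, at 522 to 1059 after distal and 1217 to 3097 after proximal amputation, and was not called. With Ivl, 5 of the 38 genes did not overlap there, against 3457 of all 15055 genes. Lor, with overlapping groups, stood at -0.44 ± 0.36 (adjusted p = 0.421).

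At 14 days 0 of the 38 genes were called, against 5.39% of all genes called in either direction. The median was -0.43 over the 38 genes and 0.00 over all genes, and 32 of the 38 values were negative, from -1.21 for Sprr2b to -0.24 for Tgm3. All 6 S100-fused genes were on the lower side, Flg at -0.97 ± 0.36 (adjusted p = 0.124) and Hrnr at -0.95 ± 0.46 (0.246). Without the distal replicate 4 that stands apart, 5 genes were called lower: Lce1a2, Flg, Hrnr, Ivl and Crct1. The share of all genes called without that library is not given here. Krt1 and Krt10 were also on the lower side, at -1.20 ± 0.38 (adjusted p = 0.0693) and -1.10 ± 0.34 (0.0626).

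At 21 days 3 of the 38 genes were called lower after distal amputation, against 9.43% of all genes, and 0 higher: Sprr2d, Tchh and Ivl. Sprr2d had 8, 27, 13 and 16 after distal and 164, 462, 45 and 47 after proximal amputation, without overlap (-2.86 ± 0.69, adjusted p = 0.00687). Its call and that of Tchh were kept when each library was left out. Ivl had 317, 457, 301 and 488 against 1701, 394, 840 and 1076, with overlap (-1.21 ± 0.37, adjusted p = 0.0288), lost without distal replicate 1 or 3 or proximal replicate 1, 3 or 4 (adjusted p up to 0.103). Lor, Flg, Hrnr and the Lce1 genes lay between -0.47 and 0.41, none of them called. Fitting only the libraries compared left 1 call, that of Sprr2d.

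The nail and hair cortex markers differed between the levels as well: 8 of 8 were called higher after distal amputation at 12 days (median 3.34, beside 9.25% of all genes called higher) and at 21 days (median 1.83, beside 8.22%), and 0 of 8 at 14 days. At 12 days 3 of 5 macrophage and 2 of 6 fibroblast markers were called lower, beside 11.0% of all genes. Called higher there were 2 of 6 basal keratinocyte, 1 of 4 wound keratinocyte and 1 of 4 neutrophil markers. At 21 days 2 of 6 basal keratinocyte and 1 of 6 fibroblast markers were called higher. Called lower at 21 days were 1 of 6 basal keratinocyte, 1 of 4 wound keratinocyte and 1 of 4 neutrophil markers, beside 9.43% of all genes. Their part in the level differences was not tested.

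**Figure D4:**
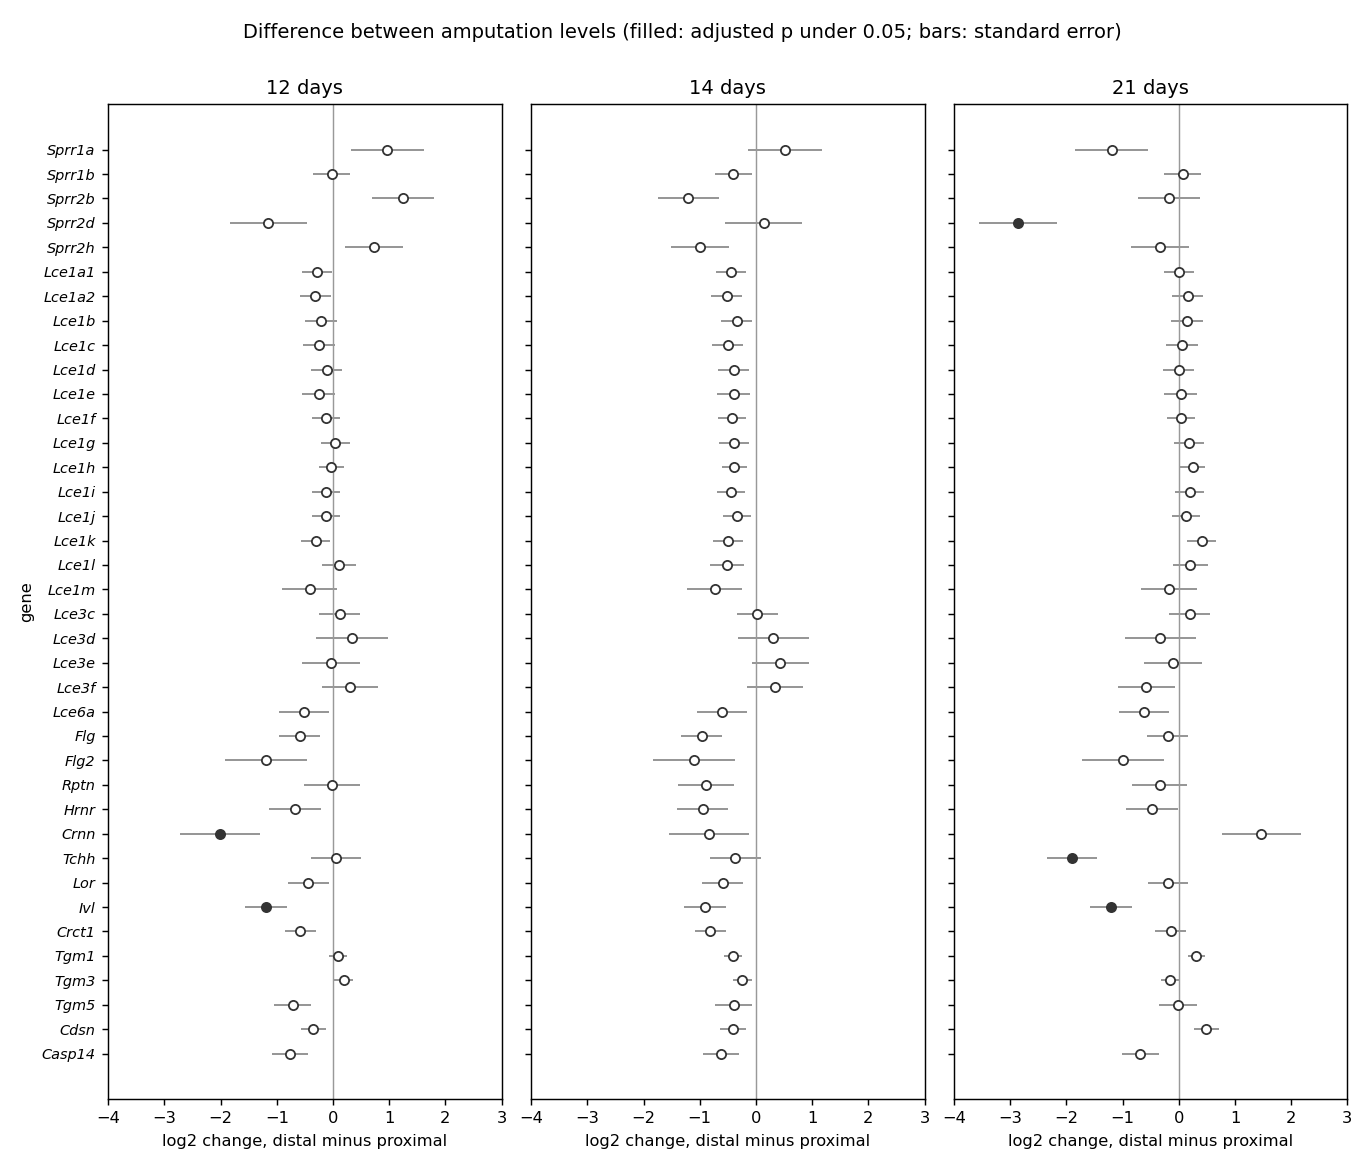
Log2 change of distal against proximal amputation (bars: SE) of the 38 genes at 12, 14 and 21 days; filled points are called. Crnn and Ivl are called at 12 days, no gene at 14 days, where 32 of 38 values are negative, and Sprr2d, Tchh and Ivl at 21 days.

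Genes that work with the envelope were described from lists chosen by function. Of 15 scaffold and suprabasal genes, 9 were called lower at 14 than at 12 days after distal amputation and 13 higher at 21 than at 14 days, none the other way, beside 8.12% and 13.3% of all genes. Krt2, a keratin of the granular layer, fell by 2.02 ± 0.41 in the first step (adjusted p = 0.00157). Krt10 (-1.55 ± 0.34, adjusted p = 0.00313) and Krt1 (-1.37 ± 0.38, 0.0148) fell with it and rose in the next, by 1.45 ± 0.34 (adjusted p = 0.00225) and 1.95 ± 0.38 (0.000446). The desmosomal cadherins Dsc1 and Dsg1a rose by 1.44 ± 0.24 (adjusted p = 9.72e-05) and 1.33 ± 0.19 (1.24e-05). The list's medians were -0.59 and 0.81, beside 0.01 and -0.04 over all genes. Krt5 and Krt14, of the basal layer, were called in neither step (-0.25 ± 0.23 and -0.32 ± 0.22, then -0.25 ± 0.23 and 0.11 ± 0.22).

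Of 10 genes of envelope proteolysis, 5 were called lower and then 9 higher after distal amputation, beside the same 8.12% and 13.3% of all genes. Asprv1, the protease that cuts profilaggrin, went by -1.55 ± 0.36 (adjusted p = 0.00405) and then by 1.68 ± 0.36 (0.000886). Klk5, a protease of corneocyte shedding, went by -1.47 ± 0.34 (adjusted p = 0.00405) and then by 1.42 ± 0.34 (0.00229). From 14 to 21 days after proximal amputation 7 of the 10 were called higher, beside 12.5% of all genes, with Cst6, which encodes the protease inhibitor cystatin M/E, at 2.24 ± 0.40 (adjusted p = 0.000301). In that step 3 of the 15 scaffold genes were called, all higher, Krtdap (1.08 ± 0.15, adjusted p = 2.3e-05) among them. From 12 to 14 days after proximal amputation 4 of the 10 proteolysis and 2 of the 15 scaffold genes were called lower, beside 7.84% of all genes. None was called higher. The median of the proteolysis list was -0.62 there and -0.63 after distal amputation, and that of the scaffold list -0.36 and -0.59.

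Of 12 transcription factors of terminal epidermal differentiation, 4 were called lower at 14 than at 12 days after distal amputation, and 5 higher and 2 lower at 21 than at 14 days. The shares over all genes were 8.12%, 13.3% and 21.5%, respectively. Grhl3, a factor of barrier formation, went by -0.91 ± 0.19 (adjusted p = 0.00217) and then by 0.49 ± 0.19, which missed the threshold (0.0523). Klf4, another such factor, was not called in the first step (-0.04 ± 0.10, adjusted p = 0.834) and rose in the next by 0.65 ± 0.10 (2.33e-05). Prdm1, which encodes BLIMP1, went by -0.47 ± 0.15 (adjusted p = 0.034) and then by 0.83 ± 0.15 (0.000241). After proximal amputation 3 of the 12 were called lower and 0 higher from 12 to 14 days, beside 7.84% and 7.35% of all genes. From 14 to 21 days 3 were called higher and 1 lower there, beside 12.5% and 16.3%. Of the other transglutaminases, Tgm2, which is expressed in many tissues, was called lower from 14 to 21 days after distal amputation (-0.86 ± 0.18, adjusted p = 0.000992), opposite to Tgm1, Tgm3 and Tgm5; Tgm4, Tgm6 and F13a1, of the same gene family, were not called in that step.

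**Figure D5:**
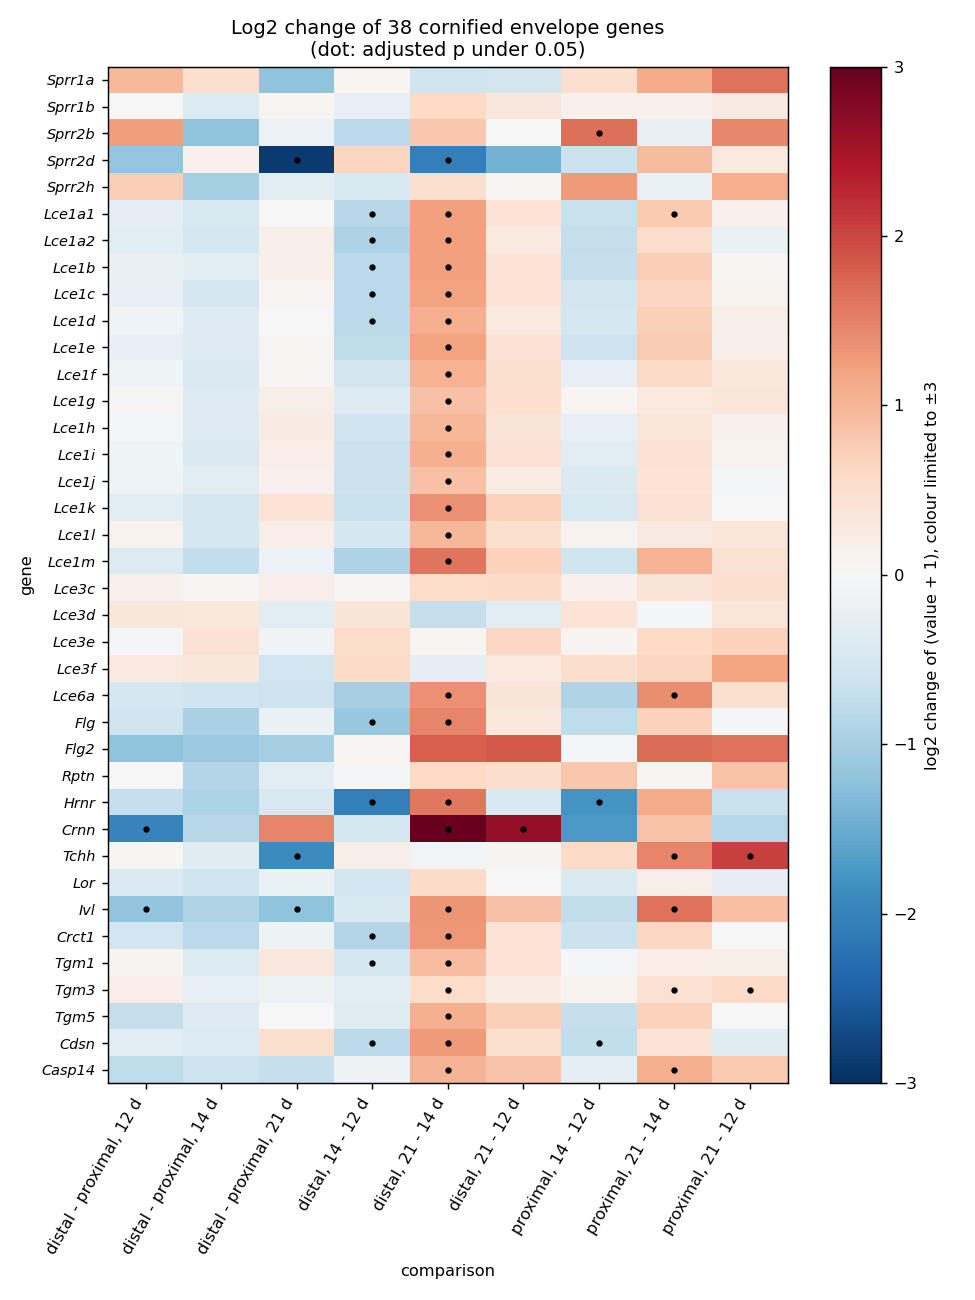
Log2 changes of the 38 genes (rows, by role) in 9 comparisons (columns), with dots on called changes. The column of 21 against 14 days after distal amputation carries 26 dots, and the 3 columns of distal against proximal amputation carry 2, 0 and 3.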

How the data were processed

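Per the labels, total RNA of 24 digit tip samples was depleted of ribosomal RNA. The submitters' processing notes name cutadapt, STAR 2.5.4b, featureCounts 1.6.3 of the Subread package and genome build mm10 (strandedness: not given in the sources used here). The deposited values are whole numbers and were treated as a score, not as read counts: over 9650 genes with every value above 100, the least variable direction across libraries had a spread of 0.00675 (natural log), where Poisson sampling would give 0.0453. The deposited values therefore look normalised and rounded; neither labels nor header mention this. The depth is unknown, no counting interval was computed, and because that direction lies within groups the p-values may be too small.

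A linear model of log2(value + 1) in limma 3.58.1 (R 4.3.3; moderated with a mean trend) used 24 libraries with 6 group means (18 residual and 3.91 prior degrees of freedom), two-sided, and p-values were adjusted over 15055 genes. The fit was tested on simulated data. Fold changes on this scale understate the change of low genes. There were 10 comparisons, and the level differences in the changes from 12 to 14 and from 14 to 21 days were added after the data were seen. The 38 genes and the lists were chosen with earlier results of these data known. Values in every library are given for genes called between levels of amputation or in the level difference of the change from 12 to 21 days, for the 2 most abundant genes of each role, and for others the text turns on. Replicate numbers did not pair the samples. Alternatives were pseudocounts of 0.5 and 8, a filter on means under 50, 2 scalings, fits of the groups compared alone, a replicate block, each library left out and, added after the data were seen, a covariate for the least variable direction. Genome positions come from RefSeq (GRCm38.p6) and promoter identities from Biopython 1.88 in Python 3.11.15. Proteins were not analysed here.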

Additional observations from a re-analysis of the deposited data

Results flagged for a closer look

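Of 228 sets of 4 libraries (38 genes in 6 groups), 19 had 1 library whose gap to the nearest other exceeded Dixon's critical share of the range for 4 values. About 5% of sets would do so if values were independent and normally spread. The levels were not put on a log scale for this, and the genes share their libraries. The share over all genes is not given here, so 19 is not read as an excess. At 14 days after distal amputation, replicate 4 was high for Lce1a1 (3154, others 1158 to 1458), Lce1a2 (3912, others 1368 to 1651), Lce1e (1162, others 470 to 534), Lce1f (1772, others 884 to 997), Flg (51744, others 10051 to 16842) and Rptn (11976, others 3706 to 4183). Replicate 2 of that group was high for Sprr1a (1747, others 79 to 281), Lce3e (231, others 60 to 77) and Lce3f (182, others 43 to 63).

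At 12 days after proximal amputation, replicate 4 was high for Crnn (1910, others 81 to 302), Rptn (18831, others 3057 to 4710) and Lce3f (139, others 25 to 27). At 14 days after proximal amputation, replicate 1 was high for Lce1f (2003, others 1335 to 1410), Lce1h (2765, others 2049 to 2165), Rptn (19388, others 6951 to 8236) and Tgm3 (9265, others 7050 to 7390). At 21 days, proximal replicate 2 was low for Lce1f (1395, others 2545 to 2656), proximal replicate 1 was high for Lce3f (198, others 63 to 84), and distal replicate 3 was high for Tgm5 (655, others 304 to 342).

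The limma test of the difference between levels was passed by Crnn (3.48) and Tchh (-1.96) in the change from 12 to 21 days and by Sprr2b (-2.45) in that from 12 to 14 days, on the log2 scale.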

How the results depend on the processing

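Counts of called genes among the 38 changed most with the libraries fitted. With only the groups compared they were 5 and 1 between levels at 12 and 21 days, 3 and 6 after distal amputation (14 and 21 against 12 days), and 9, 10 and 6 after proximal amputation (14 against 12, 21 against 14, 21 against 12 days). Median-ratio factors gave 1 between levels at 12 days and 4 for 21 against 12 days distal. Equal totals gave 6 and 13 for 14 against 12 and 21 against 14 days proximal, and moved the median of all genes to -0.19 between levels at 21 days and to 0.11 for 21 against 14 days proximal. The added covariate gave 1 between levels at 12 days and 0 for the difference in the change from 12 to 14 days.

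Same-numbered libraries did not pair: in no comparison did all 4 pairs correlate above 0.1, though 3 did between 12 and 14 days proximal (up to 0.702). With the replicate block, calls were 2 and 4 for 21 against 12 days distal and proximal, and 2 for the difference from 12 to 14 days.

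With 1 library left out, calls ran 0 to 3, 0 to 5 and 2 to 3 between levels at 12, 14 and 21 days. They ran 1 to 18, 20 to 27 and 1 to 4 after distal amputation (14 against 12, 21 against 14, 21 against 12 days) and 1 to 4, 2 to 15 and 1 to 5 after proximal. The level differences gave 0 to 3 (12 to 21 days), 0 to 1 (12 to 14) and 0 to 1 (14 to 21). For none of these alternatives is the share of all genes called given here. Single-gene calls were followed only for the 2 most abundant genes of each role and for genes called between levels or in the level difference from 12 to 21 days. Calls of other genes, Lce1a1, Lce6a and Tgm5 among them, were not followed singly. Among the calls followed, no direction reversed in any alternative. Of these single-gene results, 16 of 288 lost the call under other alternatives and 93 of 312 with a library left out. Depth is unknown, so counting error could not be separated from other spread.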
